A study of Mus musculus with 9 samples.

Results

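Cholesterol is made from acetyl-CoA by a chain of enzymes of the mevalonate and sterol pathways, taken up in lipoproteins that are digested in lysosomes, and exported by ABC transporters. When sterols in the endoplasmic reticulum run low, SCAP escorts the SREBP transcription factors to the Golgi, where they are cut free to switch on the genes of synthesis, and INSIG proteins hold SCAP back when sterols are plentiful. An excess of oxidized sterols activates the LXR receptors, which raise transcription of the exporters. The set described here holds 29 genes of this system, chosen by name and with earlier results of these data known. They are 18 enzymes in the order of the pathway, 5 regulators of the SREBP pathway and 6 genes of transport and export. Each was matched to a probe set with that single gene symbol in the platform annotation, or with its older symbol, and the probe set with the highest mean was taken where a gene had several. In this way 27 of the 29 genes were measured, of 18193 genes in all. *Acat2*, which codes for the thiolase at the head of the pathway, and *Soat1*, which codes for an enzyme that esterifies cholesterol, are not analysed here. The set holds no surface receptor for lipoproteins, and uptake is represented by *Npc1* and *Npc2*, whose products move cholesterol out of lysosomes.

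MC3T3-E1 is a single established line of preosteoblasts with a fibroblast-like shape, derived from the calvaria of newborn C57BL/6 mice. All cells had been grown for 14 days with 10% serum, 0.3 mM ascorbic acid and 10 mM glycerophosphate and replated 24 h before exposure. Control cells received a mock treatment, and the other cells received low-intensity pulsed ultrasound (LIPUS, 30 mW/cm2, 20 min) through the dish and were then cultured for a further 6 h or 24 h, with 3 arrays for each of the 3 groups. The arrays are numbered as experiments 1, 2 and 3, and arrays that carry the same number were compared with each other as pairs. The time for which the mock control was cultured is not given in the sources used here, so that a difference from control at 24 h and a difference due to time in culture cannot be told apart. Among 8 osteoblast markers, the collagen gene *Col1a1* had log2 signals of 12.43 to 12.84 in control and *Alpl*, the alkaline phosphatase gene, had 4.56 to 5.29, close to the median of 4.99 over all probe sets. Of the 11 osteoblast markers listed, *Runx2*, *Bglap* and *Spp1* were not matched to a probe set. None of the 8 measured passed the limma test in any comparison. At 24 h against control 3 of them had an unadjusted p under 0.05, as did 3085 of all 18193 genes. Every value below is a log2 signal or a difference between log2 signals, and a gene was taken to rise or fall when the adjusted p of the paired limma fit over 45037 probe sets was under 0.05. Bulk RNA does not separate fewer cells expressing a gene from less RNA per cell.

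A feature of the deposited values bears on all results. In experiments 2 and 3 many probe sets carried exactly the same value on different arrays of the experiment. The control and 24 h arrays had identical values at 1.26%, 48.4% and 31.9% of probe sets in experiments 1, 2 and 3. Among the 27 cholesterol genes this held for 0, 10 and 9 genes in experiments 1, 2 and 3. These are 0%, 37.0% and 33.3%, as compared with 0.107%, 29.8% and 18.9% of genes with a mean log2 signal of at least 7. *Sqle*, *Cyp51*, *Sc5d* and *Srebf2* had identical control and 24 h values in both experiments 2 and 3, so that experiment 1 alone supplied their difference. Only 10 of the 27 genes had no identical pair on any arrays of an experiment. None of the 6 genes that passed the test at 24 h had identical control and 24 h values, although *Insig1* had the same value in control and at 6 h in experiment 3. A difference of 0 is therefore a property of the deposited values in many places and not a measurement of no change, and how these values arose was not tested.

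**Figure D1:**
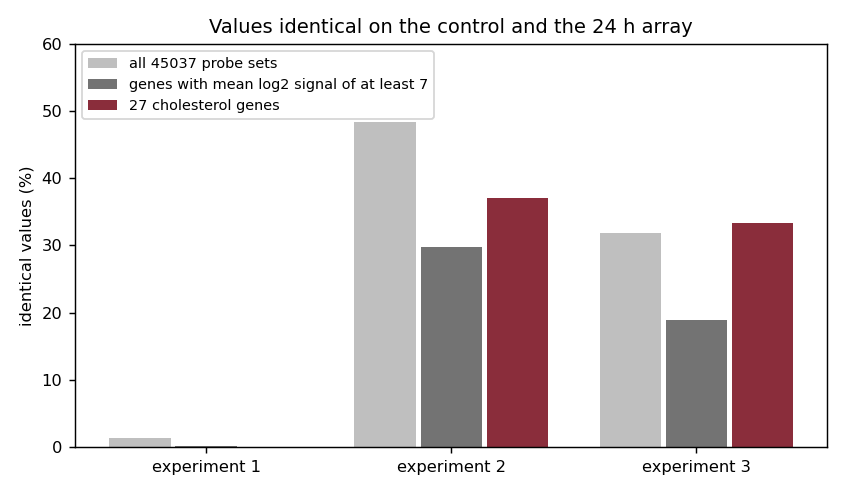
Share of probe sets or genes, in percent on the vertical axis, whose deposited value was the same on the control and the 24 h array of an experiment. Light grey bars show all 45037 probe sets, dark grey bars the genes with a mean log2 signal of at least 7, and red bars the 27 cholesterol genes. For the cholesterol genes the shares were 0, 37.0% and 33.3% in experiments 1, 2 and 3.

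The promoters of genes that turned out to differ at 24 h are shown first, since SREBP is known to act at sterol regulatory elements together with the CCAAT-binding factor NF-Y. RefSeq promoter windows of 300 bases (250 before and 50 after a transcript start, build GRCm38.p6) were found for 21 of the 27 genes, in 29 windows, and *Fdps*, which also fell at 24 h, is not among them. They were searched on both strands for the sterol regulatory element TCACNCCAC, the CCAAT box CCAAT and the palindromic E-box CACGTG, and the matches shown did not overlap each other. The sterol regulatory element in this strict spelling occurred in 1.24% of 32851 windows of all genes and in the window of *Hmgcs1* alone among the 21 genes. The CCAAT box occurred in 37.4% of all windows and in 20 of the 29, which belong to 19 genes. The E-box occurred in 7.15% of all windows and in 7 of the 29, which belong to *Abca1*, *Dhcr7*, *Hsd17b7*, *Insig1*, *Sc5d* and *Scap*. Below, the 150 bases before the start are printed 5′ to 3′ on the strand of the gene for 3 genes that fell at 24 h (*Tm7sf2*, *Nsdhl*, *Lss*), 2 that rose (*Hsd17b7*, *Insig1*) and *Hmgcs1*, the gene with the sterol regulatory element, which did not pass the test. Capitals mark a match to any of the 3 motifs, and ATTGG is the CCAAT box read on the other strand.
Tm7sf2: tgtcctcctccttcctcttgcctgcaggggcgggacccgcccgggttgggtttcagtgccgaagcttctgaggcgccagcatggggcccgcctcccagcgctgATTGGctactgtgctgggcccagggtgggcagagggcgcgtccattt
Nsdhl: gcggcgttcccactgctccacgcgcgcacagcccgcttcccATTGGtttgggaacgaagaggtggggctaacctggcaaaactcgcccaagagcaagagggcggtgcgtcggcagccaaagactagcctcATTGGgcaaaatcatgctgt
Lss: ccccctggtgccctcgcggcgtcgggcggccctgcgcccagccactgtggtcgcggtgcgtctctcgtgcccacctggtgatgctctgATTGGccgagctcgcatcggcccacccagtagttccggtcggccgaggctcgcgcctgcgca
Hsd17b7: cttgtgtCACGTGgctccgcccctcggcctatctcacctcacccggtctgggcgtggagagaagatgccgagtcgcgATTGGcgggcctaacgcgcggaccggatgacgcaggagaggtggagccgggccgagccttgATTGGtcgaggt
Insig1: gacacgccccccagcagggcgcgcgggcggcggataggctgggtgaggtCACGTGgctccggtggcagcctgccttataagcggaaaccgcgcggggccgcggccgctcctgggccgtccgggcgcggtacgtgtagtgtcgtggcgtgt
Hmgcs1: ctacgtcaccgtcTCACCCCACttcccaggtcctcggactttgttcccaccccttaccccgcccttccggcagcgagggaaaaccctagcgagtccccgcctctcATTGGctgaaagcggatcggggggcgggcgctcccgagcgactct

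These stretches lie at chr19:6067851-6068000 on the minus strand for *Tm7sf2*, chrX:72918371-72918520 on the plus strand for *Nsdhl*, chr10:76531455-76531604 on the plus strand for *Lss*, chr1:169969206-169969355 on the minus strand for *Hsd17b7*, chr5:28071262-28071411 on the plus strand for *Insig1* and chr13:119690201-119690350 on the plus strand for *Hmgcs1*. Counted back from the start, with -1 as the last base printed, the CCAAT box of *Tm7sf2* began at -47 and that of *Lss* at -62. *Nsdhl* had CCAAT boxes at -109 and -20 within the stretch shown. *Hsd17b7* had them at -73 and -12, with an E-box at -143, and a further CCAAT box at -165, outside the stretch. *Insig1* had an E-box at -101 and its CCAAT box at -216, outside the stretch. The sterol regulatory element of *Hmgcs1* began at -137. These are descriptions of letters in a window, and they show neither binding nor a cause.

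At 24 h after LIPUS, 4 of the 27 genes fell against control and 2 rose. All 4 that fell code for enzymes, namely *Fdps*, *Lss*, *Tm7sf2* and *Nsdhl*, with falls of 0.18 to 0.61 on the log2 scale. The genes that rose were *Hsd17b7*, which codes for another sterol enzyme, and *Insig1*, which codes for the SCAP-retaining brake on SREBP. Falls were thus called for 14.8% of the cholesterol genes, against 1.57% of all 18193 genes and 0.933% of all probe sets, and rises for 7.41%, against 2.57% of genes and 1.8% of probe sets. Most cholesterol genes were strongly expressed, with 25 of the 27 at a mean log2 signal of at least 7 as compared with 46.1% of all genes. Among genes of that brightness, 3.2% fell and 4.84% rose. The median difference over the 27 genes was -0.03, as compared with 0.00 over all genes, and 20 of them had a difference below 0. Because the set was chosen with earlier results of these data known, its shares beside those of all genes are a description and no test. *Tm7sf2* is among the genes that the study listed as lowered on these same arrays, so its fall is not independent evidence, and without it 3 of 26 genes fell and 2 rose. These calls depended on the pairing and on the arrays used. Limma called 0 of the 27 genes without experiment 1, 0 without experiment 2, 7 without experiment 3, 0 when the 6 h arrays were left out of the fit and 0 when the experiment was left out of the model. Calls over all probe sets were not counted for these fits.

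**Figure D2:**
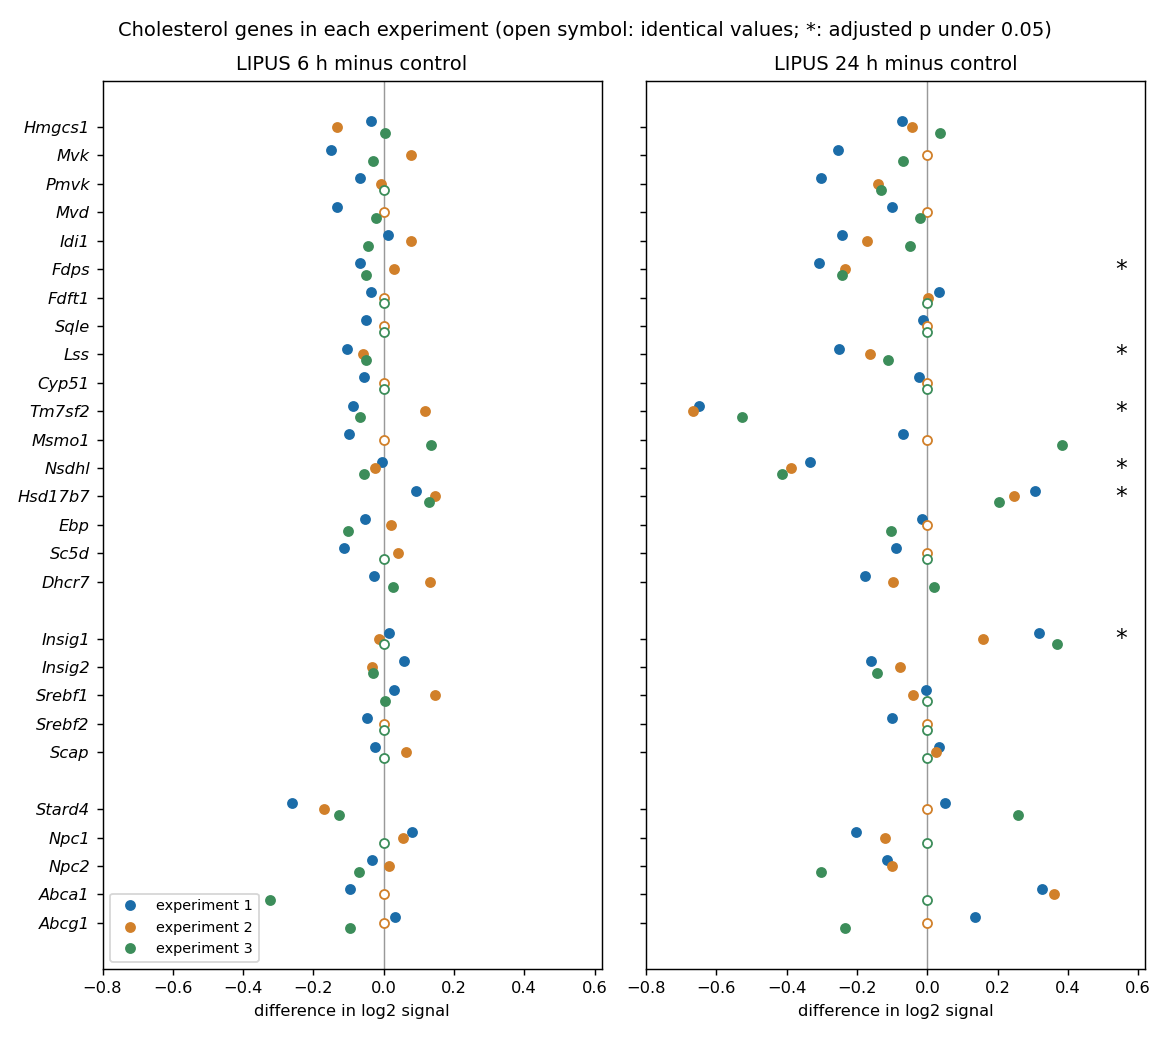
Difference in log2 signal from the control array of the same experiment, on the horizontal axis, at 6 h (left) and 24 h (right) for the 27 genes, ordered as enzymes along the pathway, SREBP regulators, and transport and export genes. Colours stand for the 3 experiments, open symbols for identical values and asterisks for an adjusted p under 0.05. At 24 h *Tm7sf2* and *Nsdhl* lie to the left and *Hsd17b7* and *Insig1* to the right of 0 in every experiment, while no gene is marked at 6 h.

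The first steps of the pathway, from HMG-CoA synthase to the isomerase of isopentenyl diphosphate, gave no call at 24 h. *Hmgcs1*, which codes for the synthase that makes HMG-CoA, had log2 signals of 12.08, 12.35 and 11.84 on the control arrays of experiments 1, 2 and 3, of 12.05, 12.22 and 11.84 at 6 h and of 12.01, 12.31 and 11.88 at 24 h. The groups overlapped almost fully, and the experiments differed from each other by more than the groups did. Its difference at 24 h was -0.03 with a 95% interval of -0.10 to 0.05 (limma, adjusted p = 0.769). The next kinase genes, *Mvk* and *Pmvk*, which phosphorylate mevalonate in turn, had differences of -0.11 and -0.19. For *Pmvk* the control values were 8.65, 8.86 and 8.42 and the 24 h values 8.34, 8.72 and 8.29, lower in every experiment, with an adjusted p of 0.0635 by limma that missed the threshold. The decarboxylase gene *Mvd* differed by -0.04, with identical values in experiment 2. *Idi1*, whose product isomerizes isopentenyl diphosphate, had control values of 10.99, 11.17 and 10.73 and 24 h values of 10.75, 11.00 and 10.68. It was lower in every experiment at 24 h, by 0.15 on average, and did not pass (95% interval -0.27 to -0.04, limma adjusted p = 0.237).

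*Fdps* codes for farnesyl diphosphate synthase, whose product is the branch point between sterols and other isoprenoids. Its log2 signals were 11.25, 11.30 and 10.95 in control, 11.18, 11.33 and 10.90 at 6 h, and 10.94, 11.07 and 10.71 at 24 h. Because experiment 3 was low throughout, the control and 24 h values overlapped, but within each experiment the 24 h array was the lowest of the 3. *Fdps* fell by 0.26 at 24 h (SE 0.03, n = 3 pairs, limma adjusted p = 0.00491), to 0.834 times the control level. A further, dim probe set of *Fdps* differed by 0.06 and did not pass, and with the mean of both probe sets the difference was -0.10 and was not called (limma adjusted p = 0.230). *Fdft1* and *Sqle*, which code for squalene synthase and squalene epoxidase and follow next, differed by 0.01 and 0.00. *Sqle* was at 10.72 in control and 10.70 at 24 h in experiment 1 and had identical values on all arrays of experiment 2 (10.92) and of experiment 3 (10.40). Its narrow 95% interval of -0.06 to 0.05 therefore rests on identical values.

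Lanosterol synthase, the product of *Lss*, closes the ring system of the sterols. Its gene had log2 signals of 9.26, 9.29 and 8.94 in control, 9.15, 9.23 and 8.89 at 6 h, and 9.01, 9.12 and 8.83 at 24 h. In each experiment the order ran from control through 6 h to 24 h, although the groups overlapped. The fall of 0.18 at 24 h (SE 0.03, n = 3 pairs) was close to the threshold (limma adjusted p = 0.0446). A dimmer probe set of *Lss* differed by 0.18 in the opposite direction without passing (limma adjusted p = 0.566), and the mean of all *Lss* probe sets differed by 0.00.

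The following steps remove methyl groups from lanosterol, and here the members did not move together. *Cyp51*, the lanosterol demethylase gene, differed by -0.01, with identical values on all arrays of experiments 2 and 3. *Tm7sf2*, which codes for a sterol C14 reductase, gave the largest difference of the 27 genes. Its log2 signals were 7.86, 8.08 and 7.63 in control, 7.78, 8.20 and 7.56 at 6 h, and 7.21, 7.41 and 7.10 at 24 h. All 3 values at 24 h lay below every control and every 6 h value. The fall of 0.61 (SE 0.06, n = 3 pairs, limma adjusted p = 0.00488) left 0.653 times the control level. By experiment the difference was -0.65, -0.67 and -0.53, so that experiments 1 and 2 passed a 1.5-fold change (0.58 on the log2 scale) and experiment 3 did not. *Lbr*, outside the 27 genes, also codes for a sterol C14 reductase and was brighter, with a mean log2 signal of 10.75 against 7.65 for *Tm7sf2*. It differed by -0.13 at 24 h and did not pass (limma adjusted p = 0.0735).

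*Msmo1* codes for the sterol C4 methyl oxidase that works just before *Nsdhl*. Its values were 10.44, 10.46 and 10.09 in control and 10.37, 10.46 and 10.47 at 24 h, so that it was slightly lower in experiment 1, identical in experiment 2 and higher in experiment 3. It did not pass (difference 0.10, 95% interval -0.08 to 0.29, limma adjusted p = 0.647). *Nsdhl*, whose product removes the C4 carboxyl group, had log2 signals of 9.23, 9.46 and 9.23 in control, 9.23, 9.44 and 9.17 at 6 h, and 8.90, 9.08 and 8.81 at 24 h. As for *Tm7sf2*, the 24 h values did not overlap those of control or 6 h. *Nsdhl* fell by 0.38 (SE 0.03, n = 3 pairs, limma adjusted p = 0.00132), to 0.769 times control.

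*Hsd17b7* codes for the reductase of the same C4 demethylation complex, and it changed in the opposite direction. The signals were 8.88, 9.07 and 8.62 in control, 8.97, 9.22 and 8.74 at 6 h, and 9.19, 9.32 and 8.82 at 24 h. Every experiment showed the same order, lowest in control and highest at 24 h, with overlap between the groups. The rise at 24 h was 0.25 (SE 0.03, n = 3 pairs, limma adjusted p = 0.0134), or 1.19 times control. The 3 further probe sets of *Hsd17b7*, all dimmer, had differences of 0.06 to 0.12 and did not pass, and the mean of all its probe sets differed by 0.13 and was not called (limma adjusted p = 0.148). The last enzymes, *Ebp* (the sterol isomerase gene), *Sc5d* (lathosterol oxidase) and *Dhcr7* (7-dehydrocholesterol reductase), differed by -0.04, -0.03 and -0.09 and did not pass. Further probe sets of *Sc5d* lay on the other side of 0, at 0.12 and 0.19, and did not pass either. Of the 17 enzymes measured, 4 fell, 1 rose and 12 did not pass, with a median difference of -0.04. Over all genes 1.57% fell and 2.57% rose, and among genes with a mean signal of at least 7, 3.2% fell and 4.84% rose.

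**Figure D3:**
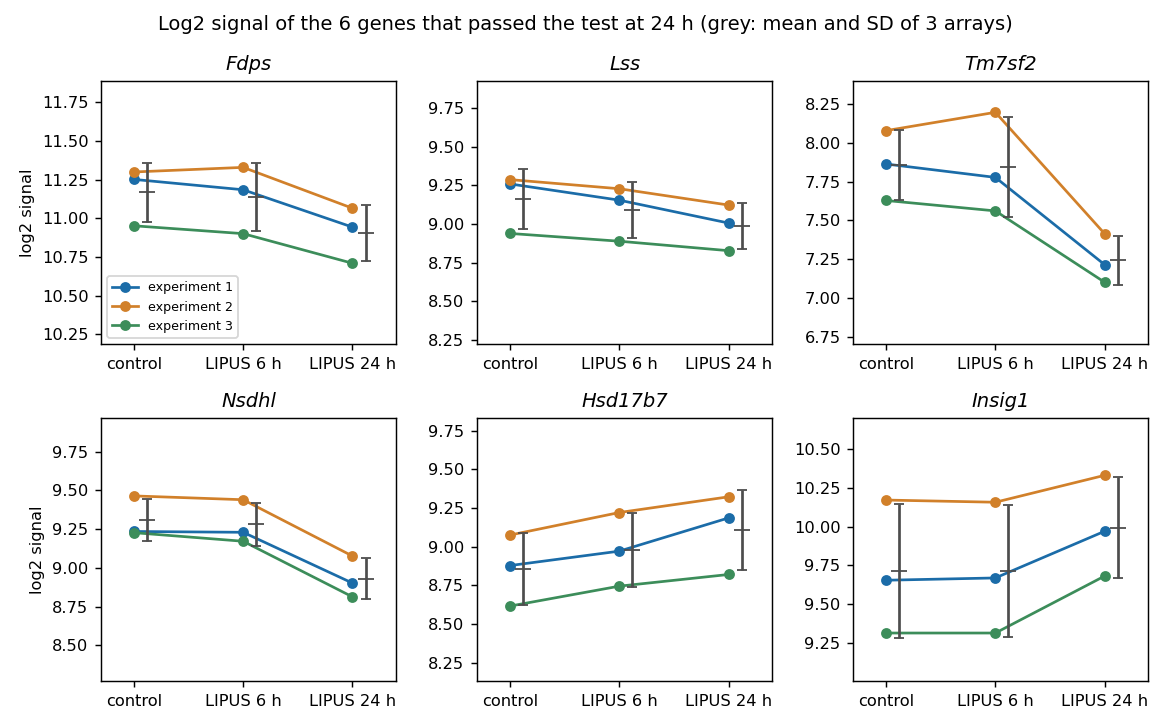
Log2 signal, on the vertical axis, of the 6 genes that passed the test at 24 h, in control, LIPUS 6 h and LIPUS 24 h cells. Coloured lines join the arrays of an experiment, grey marks give the mean and SD of the 3 arrays, and all panels span the same number of log2 units. At 24 h *Tm7sf2* (7.21, 7.41 and 7.10) and *Nsdhl* (8.90, 9.08 and 8.81) lie below all their control and 6 h values, while for the other 4 genes the groups overlap.

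Among the 5 regulators, *Insig1* alone passed at 24 h. Its log2 signals were 9.65, 10.17 and 9.31 in control, 9.67, 10.16 and 9.31 at 6 h, and 9.97, 10.33 and 9.68 at 24 h. The spread between experiments was larger than the change, and the groups overlapped, but the 24 h array was the highest in each experiment. *Insig1* rose by 0.28 (SE 0.04, n = 3 pairs, limma adjusted p = 0.0207), to 1.22 times control. *Insig2*, the related gene with the same retention function, had a difference of -0.13 that did not pass (limma adjusted p = 0.169), while a further probe set of *Insig2* fell by 0.28 (limma adjusted p = 0.0166). *Srebf1* and *Srebf2*, which code for SREBP-1 and SREBP-2, differed by -0.01 and -0.03, and *Scap* by 0.02. Each of these 3 genes had identical control and 24 h values in 1 or both of experiments 2 and 3.

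No gene of transport and export passed at 24 h against control. *Npc2* and *Npc1* had differences of -0.17 and -0.11. The control values of *Npc2* were 12.57, 12.74 and 12.55 and the 24 h values 12.46, 12.64 and 12.24, lower in each experiment (limma adjusted p = 0.0862), and a further probe set of *Npc2* fell by 0.21 (limma adjusted p = 0.0151). Over all genes of the set, 33 further probe sets of 18 genes were measured, and those of *Insig2* and *Npc2* were the 2 that fell at 24 h, with 0 that rose. *Abca1*, the exporter that loads cholesterol onto apolipoprotein A-I, had dim signals of 4.82, 5.26 and 5.25 in control and of 5.14, 5.62 and 5.25 at 24 h. It was higher in experiments 1 and 2 and identical in experiment 3, and it did not pass (difference 0.23, 95% interval 0.04 to 0.42 before adjustment, limma adjusted p = 0.298). *Abcg1*, which codes for an exporter to mature lipoprotein particles, lay at 3.57 to 4.41 in control, below the median of all probe sets, and differed by -0.03.

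At 6 h after LIPUS, 0 of the 27 genes passed in either direction, and limma called 0 of all 45037 probe sets lower or higher (0% in each direction), with 1575 probe sets and 2 cholesterol genes at an unadjusted p under 0.05. The 2 genes were *Hsd17b7* and *Stard4*. *Hsd17b7* was higher than control in all experiments, by 0.12 (95% interval 0.04 to 0.20, limma adjusted p = 0.959). *Stard4*, which codes for a cytosolic carrier that moves sterols between membranes, had values of 8.91, 9.13 and 8.53 in control, 8.65, 8.96 and 8.40 at 6 h, and 8.96, 9.13 and 8.79 at 24 h. It was lower at 6 h in every experiment, by 0.19 (95% interval -0.31 to -0.06, limma adjusted p = 0.959), while its further probe sets differed by -0.03 and 0.01. *Tm7sf2* and *Nsdhl* differed from control at 6 h by -0.01 (95% interval -0.16 to 0.14) and -0.03 (95% interval -0.09 to 0.04), and *Insig1* by 0.00.

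The times were also set against each other, a comparison that shares its 24 h arrays with that against control. Cells at 24 h had been cultured longer than those at 6 h, and time in culture and time after LIPUS cannot be told apart. From 6 h to 24 h, 3 of the 27 genes fell and 1 rose, or 11.1% and 3.70%, against 1.49% and 1.75% of all genes, 0.879% and 1.14% of all probe sets, and 3.05% and 3.26% of genes with a mean signal of at least 7. *Fdps* fell by 0.23 (SE 0.03, limma adjusted p = 0.0085), *Tm7sf2* by 0.60 (SE 0.06, limma adjusted p = 0.00595) and *Nsdhl* by 0.35 (SE 0.03, limma adjusted p = 0.00215), and *Insig1* rose by 0.28 (SE 0.04, limma adjusted p = 0.0247). For *Lss* and *Hsd17b7* the difference between the times was -0.10 and 0.13 and did not pass. *Stard4* was higher at 24 h than at 6 h by 0.29, just short of the threshold (limma adjusted p = 0.0522), and *Abca1* was higher by 0.37, with 24 h values of 5.14, 5.62 and 5.25 against 4.72, 5.26 and 4.92 at 6 h (limma adjusted p = 0.0945). In this comparison, too, 0 of the 27 genes were called without experiment 1, 0 without experiment 2, 0 without the control arrays and 6 without experiment 3. Here, too, calls over all probe sets were not counted.

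Neighbouring gene groups were counted in the same fit, in which 1.57% of all genes fell and 2.57% rose at 24 h against control. Among genes with a mean signal of at least 7, 3.2% fell and 4.84% rose. Genes of fatty acid synthesis are also SREBP targets, chiefly of SREBP-1, and 14 of 15 listed were measured. At 24 h, 4 of them fell and 2 rose against control, with a median of -0.11. *Scd1*, the stearoyl-CoA desaturase gene, had values of 11.09, 11.15 and 11.07 in control and of 10.76, 10.81 and 10.76 at 24 h, without overlap, and fell by 0.33 (SE 0.05, limma adjusted p = 0.0151). *Elovl5* and *Fads2*, which code for an elongase and a desaturase of polyunsaturated fatty acids, fell by 0.26 and 0.24 (limma adjusted p = 0.0104 and 0.0149), and *Me1*, the malic enzyme gene, fell by 0.11 (limma adjusted p = 0.0495). *Gpam* and *Lpin1*, whose products act in glycerolipid synthesis, each rose by 0.19 (limma adjusted p = 0.0204 and 0.0440). The fatty acid synthase gene *Fasn* differed by -0.05 and did not pass.

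Of 10 measured genes of sterol sensing and LXR signalling (12 listed), 0 fell and 1 rose at 24 h, against 1.57% and 2.57% of all genes. The gene that rose was *Mylip*, an LXR target whose product marks lipoprotein receptors for degradation. Its control values were 9.48, 9.56 and 9.43 and its 24 h values 9.81, 9.97 and 9.56. The lowest 24 h value lay just below the highest control value, and the rise was 0.29 (SE 0.05, limma adjusted p = 0.0361). *Nr1h3*, the LXR alpha gene, differed by -0.12 and did not pass. Of 20 further genes of sterol uptake, transport and conversion (24 listed), none passed against control, and 8 had an unadjusted p under 0.05 by limma. Of all 18193 genes, 3085 were under that level at 24 h against control, and 2385 of the 8383 genes with a mean signal of at least 7. From 6 h to 24 h *Lrp1*, an endocytic receptor gene, fell by 0.54 (limma adjusted p = 0.00385). It had been at 9.78, 9.94 and 9.62 in control and at 10.23, 10.43 and 9.85 at 6 h, higher in every experiment, and this 6 h difference of 0.39 did not pass. The 10 measured genes of the isoprenoid branches (11 listed) act downstream of *Fdps* in prenylation and other routes. They gave no call at 24 h, with 3 at an unadjusted p under 0.05 and a median of 0.04.

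Other groups moved at 24 h in the same arrays, on which 1.57% of all genes fell and 2.57% rose against control. Among genes with a mean signal of at least 7, 3.2% fell and 4.84% rose. Of 14 measured G2 and M phase genes 13 fell, with a median of -0.31, and their summed signal on the linear scale ranged from 15424 to 20575 in control, 15706 to 21843 at 6 h and 12413 to 16916 at 24 h. Of 10 epithelial markers 2 fell, namely *Krt14* by 0.98 and *Cdh1* by 0.75, and *Trp63* rose by 0.44, with a summed signal of 1405 to 1703 in control, 1411 to 1677 at 6 h and 1038 to 1285 at 24 h. *Krt14* had values of 9.72, 9.91 and 9.65 in control, so that this keratin gene was bright in a line labelled as preosteoblast. It was the brightest of the 10 markers, and a sum on the linear scale weights it most. The summed signal therefore does not describe the 10 as a group. Of them, 7 had a difference below 0 and 3 above, with a median of -0.12. Among 6 macrophage markers *Lyz2* rose by 0.49, with a summed signal of 174 to 212 in control, 173 to 214 at 6 h and 197 to 276 at 24 h. None of 9 adipocyte, 4 endothelial and 4 skeletal muscle markers passed at 24 h, with 3, 0 and 0 at an unadjusted p under 0.05 by limma. Of all 18193 genes, 3085 were under that level. The part of these groups in the differences of the cholesterol genes was not tested.

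**Figure D4:**
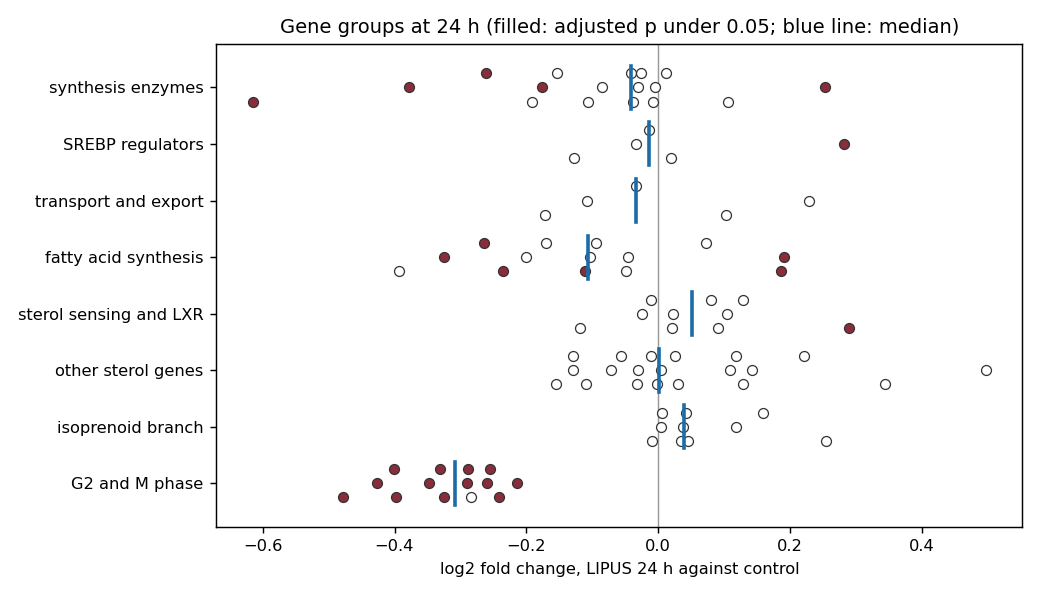
Log2 fold change at 24 h against control, on the horizontal axis, for the genes of 8 groups, with 1 point a gene. Filled points passed the test, and blue lines are the medians of the groups. The synthesis enzymes spread from -0.61 to 0.25 around a median of -0.04, whereas the G2 and M phase genes all lie below 0 around a median of -0.31.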

How the data were processed

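Per the labels, 500 ng of total RNA was labelled for Affymetrix whole-genome mouse arrays, and the deposited values are log2 signals that the authors made with RMA. Its version and settings are not given in the sources used here, and the number of arrays limits the precision. Array medians were 4.89 to 5.15. Of 45101 probe sets, 64 controls were left out. One symbol was given for 34945, several for 932 and none for 9160, and only the first were named. The fit used lmFit and eBayes with an intensity trend (limma 3.58.1, R 4.3.3) on 9 arrays, in which experiment entered as a fixed block (4 residual degrees of freedom) and Benjamini-Hochberg adjustment over 45037 probe sets. Deviations from group means had correlations of 0.70 to 0.93 for arrays that share a number and of -0.67 to 0.01 for others. The study describes 3 repeated experiments, and whether these were separate cultures is not given in the sources used here, so p-values may measure technical spread. Every measured member was named, with up to 3 called genes of each other list, *Col1a1* and *Alpl*. *Me1*, *Gpam*, *Lpin1*, *Fasn*, *Nr1h3*, *Lrp1* and *Lbr* were added after their values were seen. The members and lists were chosen with earlier results of these data known. The procedure was tested on simulated data. Alternatives covered the block, trend, arrays, normalization, signal filter, probe set rule, test and fold.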

Additional observations from a re-analysis of the deposited data

Results flagged for a closer look

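The change from 6 h to 24 h passed the test for 4 of the 27 genes, in the fit over all 9 arrays. *Fdps* differed by -0.23, *Tm7sf2* by -0.60, *Nsdhl* by -0.35 and *Insig1* by 0.28 on the log2 scale (24 h minus 6 h). Each moved in the stated direction in 3 of 3 experiments. When the control arrays were left out of the fit, 0 of the 27 genes passed this test. Time in culture and time after LIPUS cannot be told apart in this comparison.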

How the results depend on the processing

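Calls among the 27 genes depended on how the experiments were treated. Main counts were 4 lower and 2 higher at 24 h against control, and 3 lower and 1 higher at 24 h against 6 h. Without the replicate block, with only the 2 groups compared, with the methods' t-test after Benjamini-Hochberg adjustment, or with a 1.5-fold change in all 3 experiments, each of these counts was 0. The adjusted t-test called 0 of all 45037 probe sets in every comparison, so its 0 is not particular to these genes. For the other settings in this section, apart from the filter described last, calls over all probe sets were not counted. Their counts therefore cannot be set beside a general change in the number of calls. The methods' t-test without adjustment gave *Tm7sf2* and *Nsdhl* in both comparisons, among 351 probe sets in all against control and 299 against 6 h. Leaving out an experiment gave 0 to 5 lower and 0 to 2 higher at 24 h against control, and 0 to 4 lower and 0 to 2 higher against 6 h. All 6 genes kept their call at 24 h without experiment 3. Without the intensity trend, *Fdps*, *Tm7sf2* and *Nsdhl* were called against control and 0 genes were higher in either comparison. With the replicate block as a random effect *Lss* was lost at 24 h (adjusted p = 0.0530), and 3 genes were higher at 24 h than at 6 h. Quantile normalization, and probe sets above the median signal, each gave 2 genes higher at 24 h than at 6 h. With the mean of all probe sets of a gene 1 was higher against control, *Lss* turned to 0.0016, and *Fdps* (-0.10) and *Hsd17b7* (0.13) lost their calls. An alternative chosen after seeing the data kept the 5755 probe sets with no identical values within an experiment, and 18.0% of these were called at 24 h. This filter removes differences of exactly 0 and left 10 of the 27 genes, so its counts are no support for the calls. They were 7 lower and 1 higher against control, and 5 lower and 1 higher against 6 h. At 6 h against control, every alternative run gave 0. The other directions were kept under all alternatives, and *Nsdhl* ranged from -0.40 to -0.36 and *Tm7sf2* from -0.66 to -0.59 against control. The cause of these shifts was not tested.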
